A study of Homo sapiens with 15 samples.

Results

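The cytosolic ribosomal proteins are the protein components of the large and small subunits of the ribosome in the cytoplasm. Their genes were taken by symbol, as RPL or RPS followed by a number and at most a short paralogue suffix, together with RPLP0, RPLP1, RPLP2 and RPSA. This gave 90 rows with 89 symbols among the 60107 genes listed, 57 of them for the large and 33 for the small subunit, because RPL41 was listed in 2 rows. The RNA was from MIA PaCa-2, an epithelial cell line of a human pancreatic carcinoma, and was sequenced in 15 libraries that form 5 groups of 3. The groups were vehicle (Ctrl), Lys05, which is a dimeric chloroquine derivative that inhibits autophagy in the lysosome, and the compounds BAQ12, BAQ13 and BAQ12O. The cells were exposed for 24 h to 5 µM of each compound. The study names nanoparticles of BAQ13 in its RNA sequencing results, and its RNA sequencing methods do not state the form in which BAQ12 was applied. BAQ12O was named in the labels, and its formulation is not given in the sources used here. All 5 groups were of this one line, and nothing in the sources says whether replicates were separate cultures, so the p-values measure only the spread between these samples.

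A ribosome holds a single copy of nearly every one of these proteins, and copies that find no place in a subunit are degraded. Most of their mRNAs begin with a C followed by a run of pyrimidines, the terminal oligopyrimidine (TOP) start, through which mTORC1, a kinase complex that is activated on the lysosome, controls how actively they are translated. That control acts mainly on translation, which RNA levels do not measure. A few proteins have a paralogue that can take their place, such as RPL22L1 for RPL22, and a few also act outside the ribosome, such as RPL5 and RPL11, which bind the p53 regulator MDM2.

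The deposited values are normalised read counts, in which the reads of a gene are divided by the size factor of its library. The libraries held 1586566 to 2500551 reads on genes, and 3061150 reads in all lay on the ribosomal protein rows. A filter on low counts kept 83 of the 90 rows. The 7 rows left out were RPL3L, RPL10L, RPL39L, RPS10L, RPL7AL2, RPL7AL3 and RPL12L3, with between 0 and 6 reads over all libraries, and a count of 0 allows up to 3 reads, which is 2.49 to 4.14 normalised reads depending on the library. The second RPL41 row (ENSG00000279483, chr7:137513859-137513933, GRCh38) is annotated as a processed pseudogene in GENCODE, and RPL41 itself lies on chromosome 12. RPS10L, RPL7AL2, RPL7AL3 and RPL12L3 carry the same annotation. The family has many such pseudogenes. In all, 864 rows carry the name of a ribosomal protein pseudogene, and they held 7.07 to 8.44 reads per 1000 reads of the family. How the counting divided reads between a gene and its copies is not given in the sources used here.

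The keratins KRT8, KRT18 and KRT19 were read in all 15 libraries, with KRT18 at 634 to 969.7 normalised reads, whereas EPCAM and KRT7 were at or near 0 and CDH1 had over 3 reads in 1 library. Of the mesenchymal-type genes, VIM was at 9198 to 10781 and ZEB1 at 107 to 185, whereas CDH2 was at or near 0. Of the markers of other cell types, COL1A2 and CDH5 were read in all 15 libraries, CD68 and PTPRC had at most 7.54 and 5.72 normalised reads, and the others were at or near 0.

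BAQ12 replicate 3 and BAQ13 replicate 1 stood apart from their own groups, and main results that rest on them are also given without them. The chi-square of the counts per degree of freedom was 1.05 to 1.34 for the pairs of vehicle libraries, the pairs of Lys05 libraries and BAQ12 replicates 1 and 2. It was 13.5 and 11.4 between BAQ12 replicate 3 and the other BAQ12 libraries, and 3.40 and 6.21 between BAQ13 replicate 1 and the other BAQ13 libraries, against 1.77 between those. BAQ12O replicate 3, at 1.64 and 1.70, lay nearer to its group. The closest pair, vehicle replicates 2 and 3, was at 1.05 over 9702 genes, and counting error alone gives a value near 1. The measure therefore cannot show whether the closest pairs came from separate libraries or cultures. No pair was treated as 1 library deposited more than once.

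The starts of the genes that the results turn on are shown first because most of the family shares a pyrimidine-rich start. Of the members shown, only RPS27L and RPL26L1 lack it. Each line is a window of 30 bases on the strand of the gene, from 10 bases before to 20 bases from the RefSeq start (GRCh38.p14), with the longest run of only C or T in capitals.
RPS28, chr19:8321486-8321515, plus strand: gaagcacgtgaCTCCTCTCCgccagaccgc
RPL22, chr1:6199576-6199605, minus strand: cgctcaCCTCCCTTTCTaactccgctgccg
RPL22L1, chr3:170870176-170870205, minus strand: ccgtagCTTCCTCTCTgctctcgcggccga
RPS27, chr1:153990752-153990781, plus strand: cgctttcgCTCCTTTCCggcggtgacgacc
RPS27L, chr15:63157458-63157487, minus strand: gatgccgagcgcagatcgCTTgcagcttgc
RPL26, chr17:8383174-8383203, minus strand: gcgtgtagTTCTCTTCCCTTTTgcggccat
RPL26L1, chr5:172958719-172958748, plus strand: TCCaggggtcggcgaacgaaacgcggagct
RPS7, chr2:3575250-3575279, plus strand: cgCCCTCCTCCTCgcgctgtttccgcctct
RPL10A, chr6:35468391-35468420, plus strand: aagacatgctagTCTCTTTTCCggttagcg
RPS9, chr19:54200848-54200877, plus strand: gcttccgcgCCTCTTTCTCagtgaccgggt
RPL35, chr9:124861938-124861967, minus strand: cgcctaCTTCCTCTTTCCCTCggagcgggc
A start was found in the table for 68 of the 89 symbols, and where a gene had several starts, the one with the longest run was used. A run of at least 8 consecutive C or T, searched on the strand of the gene only, was present in 55 of the 68 (80.9%), against 4160 of the 27237 other genes with a start (15.3%). A C at the start base with 4 pyrimidines after it was present in 47 of the 68 (69.1%) and in 1301 of the 27237 others (4.78%). The paralogues RPS27L, RPL26L1 and RPL7L1 and the gene RPL3 were among the 13 without a run of 8, whereas RPL22L1 and RPL36AL had one. In other words, the starts of RPL22 and RPL22L1 shared the feature, and those of RPS27 and RPS27L, or of RPL26 and RPL26L1, did not.

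The share of all reads that lay on the family overlapped between vehicle and each treatment. In vehicle cells the ribosomal protein rows held 9.66%, 9.21% and 9.48% of the reads on genes, and the mean was 9.45% ± 0.223 (SD, n = 3). With Lys05 the shares were 9.87%, 9.59% and 9.80%, with a mean of 9.75% ± 0.148. With BAQ12 they were 10.2%, 9.87% and 8.14%, with BAQ13 8.94%, 10.1% and 10.1%, and with BAQ12O 9.35%, 9.21% and 9.15%. The means were 9.42% ± 1.12, 9.69% ± 0.654 and 9.24% ± 0.102 (SD, n = 3 each), and since these shares are a score over the members, no test was made of them. Lys05 replicates 1 and 3, BAQ12 replicates 1 and 2 and BAQ13 replicates 2 and 3 lay above every vehicle library, and 1 BAQ12O library lay below the lowest of them. The lowest share of all was that of BAQ12 replicate 3, and the second lowest that of BAQ13 replicate 1. The mitochondrially encoded genes, which took 15.8% to 20.6% of the reads, were highest in BAQ12 replicate 3 (20.6%) and BAQ12O replicate 3 (20.4%), and their part in the shares of the family was not tested beyond a change of the denominator given in the closing section. In bulk RNA, a smaller share cannot be told apart from fewer ribosomal protein mRNAs per cell or more of other RNAs.

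**Figure D1:**
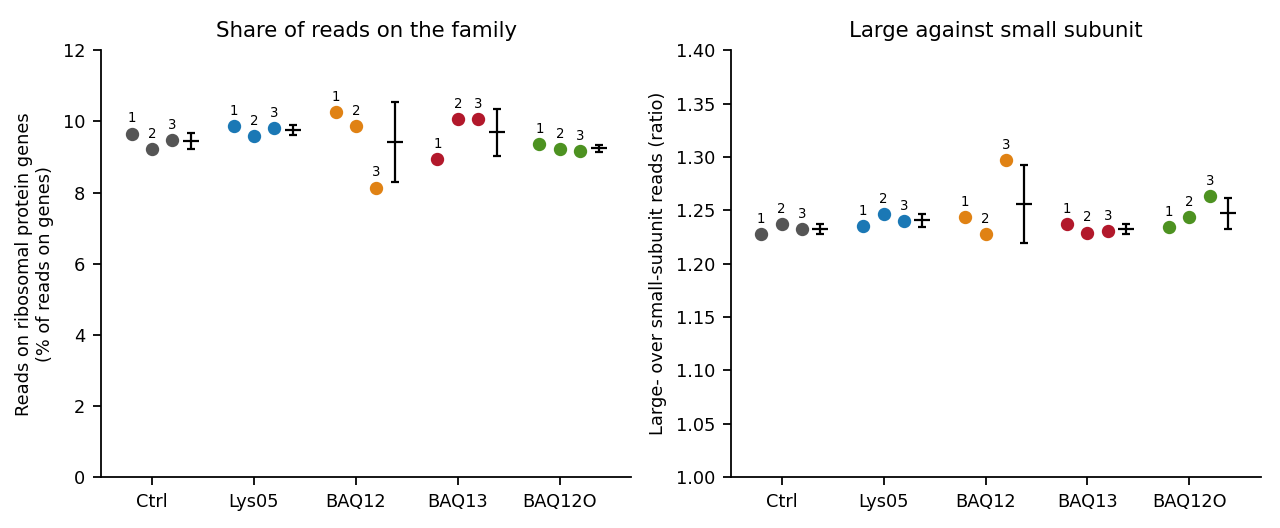
Left, reads on the 90 ribosomal protein rows as a percentage of all reads on genes; right, reads on large-subunit over small-subunit rows (axis from 1). Points are libraries with their replicate number, and bars are mean ± SD of 3 libraries. BAQ12 replicate 3 has the lowest share (8.14%) and the highest ratio (1.30).

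The large-subunit rows held more reads than the small-subunit rows in each library, and the ratio was nearly constant. It was 1.23 to 1.24 in vehicle cells and between 1.23 and 1.26 in 14 of the 15 libraries. BAQ12 replicate 3 was at 1.30. The balance of large-subunit and small-subunit mRNAs thus stayed within a narrow range in each treatment apart from that library.

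The levels of single members varied little between libraries of the vehicle, Lys05 and BAQ12O groups. The SD of the 3 vehicle libraries on the log2 scale had a median of 0.052 over the 83 rows, against 0.15 over all 10495 genes tested. In the Lys05 and BAQ12O groups it was 0.060 and 0.072. In the BAQ12 and BAQ13 groups it was 0.30 and 0.20, with 0.28 and 0.20 over all genes. These are the groups that hold the 2 libraries that stood apart. The members and all genes were not matched for read count, and genes with few reads are measured less precisely. Over the 15 libraries the coefficient of variation of the normalised count was under 10% for 38 rows, 10% to 20% for 34 and 20% or more for 11. The steadiest were RPS16 (3.37%), RPL32 (3.83%) and RPS24 (4.54%), and the most variable RPS7 (31.3%), RPL22L1 (27.3%) and RPS9 (26.3%). RPS16, which reaches the decoding site with its tail, had 2897, 2857 and 2860.3 normalised reads in vehicle cells, 2966, 2999 and 2848 with BAQ12 and 2954, 3086 and 2711 with BAQ13. RPL32 had 2816, 2863 and 2925, 2994, 2991 and 2822 and 2871, 3087 and 3086 in these groups, and RPS24, a gene mutated in Diamond-Blackfan anaemia, had 6003, 5604 and 5709, 6265, 6340.3 and 6015 and 6193, 6377 and 6229. In these genes BAQ12 replicate 3 and BAQ13 replicate 1 stayed close to the others. That follows from the choice of these genes for low variation over all 15 libraries.

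In BAQ12 replicate 3 and BAQ13 replicate 1 the members left their common level in both directions, gene by gene. Against the vehicle mean, 26 rows were lower and 9 higher by over 1.5-fold in BAQ12 replicate 3, and 4 were lower and 2 higher in BAQ13 replicate 1. None of the other 13 libraries had a row that far from the vehicle mean, RPL22L1 in BAQ13 replicate 3 being the farthest below it at −0.54 on the log2 scale. RPS7, a small-subunit protein that can also bind MDM2, showed the pattern most clearly.

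RPS7 had 952, 930.1 and 1074 normalised reads in vehicle cells and 1102, 1016 and 869 with Lys05. With BAQ12 the values were 1254, 1057 and 187, and with BAQ13 430.2, 919 and 1179. With BAQ12O they were 839, 787 and 744. The low values of BAQ12 and BAQ13 were those of the 2 libraries named, while the other BAQ12 and BAQ13 libraries lay in or above the vehicle range or just under it, and all 3 BAQ12O libraries lay below the lowest vehicle library. The difference of RPS7 from vehicle was −0.64 with BAQ12 and −0.34 with BAQ13, but 0.23 without BAQ12 replicate 3 and 0.082 without BAQ13 replicate 1, and none of these was called. RPS9, a small-subunit protein at the entry of the mRNA channel, went the other way, with 1536, 1485 and 1508 in vehicle cells, 1334, 1567 and 3062 with BAQ12 and 2402, 1732 and 1419 with BAQ13. With Lys05 it was at 1482, 1533 and 1657, and with BAQ12O at 1559, 1671 and 1565. RPS9 was thus highest in the libraries in which RPS7 was lowest.

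The same genes stood out in both libraries. Differences from the vehicle mean on the log2 scale, in BAQ12 replicate 3 and BAQ13 replicate 1 in this order, were −2.39 and −1.19 for RPS7, −1.34 and −0.77 for RPL10A, a protein of the L1 stalk of the large subunit, and −1.18 and −0.57 for RPS29, a small zinc-binding protein of the small subunit. They were 1.08 and 0.58 for RPL8, a large-subunit protein near the peptidyl transferase centre, 1.07 and 0.50 for RPL35, a protein at the exit of the peptide tunnel, and 0.84 and 0.61 for RPS27L. RPL10A had 1499, 1261 and 1339 normalised reads in vehicle cells, 1781, 1316 and 536 with BAQ12, 801, 1496 and 1458 with BAQ13 and 1262, 1069 and 993 with BAQ12O. RPL8 had 2521, 2362 and 2327, 2451, 2574 and 5076, 3592, 2885 and 2498 and 2527, 2707 and 2633 in the same order. RPL10A, RPL8, RPL35 and RPS29 were chosen after their values were seen. When each library was set against the mean of the other libraries of its own group, which removes the shared vehicle mean, the deviations of the 83 rows in the 2 libraries had a Pearson r of 0.925 and a Spearman rho of 0.904, and 77 of the 83 had the same sign. Over all 10495 genes tested, which were not matched to the members for read count, r was 0.573. The points are genes, which are not independent replicates, and the 2 groups share no library. The first principal component of the 83 rows over the 15 libraries held 80.2% of their variance, with a score of 5.33 in BAQ12 replicate 3, 2.61 in BAQ13 replicate 1 and −1.76 to 0.430 in the other 13.

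**Figure D2:**
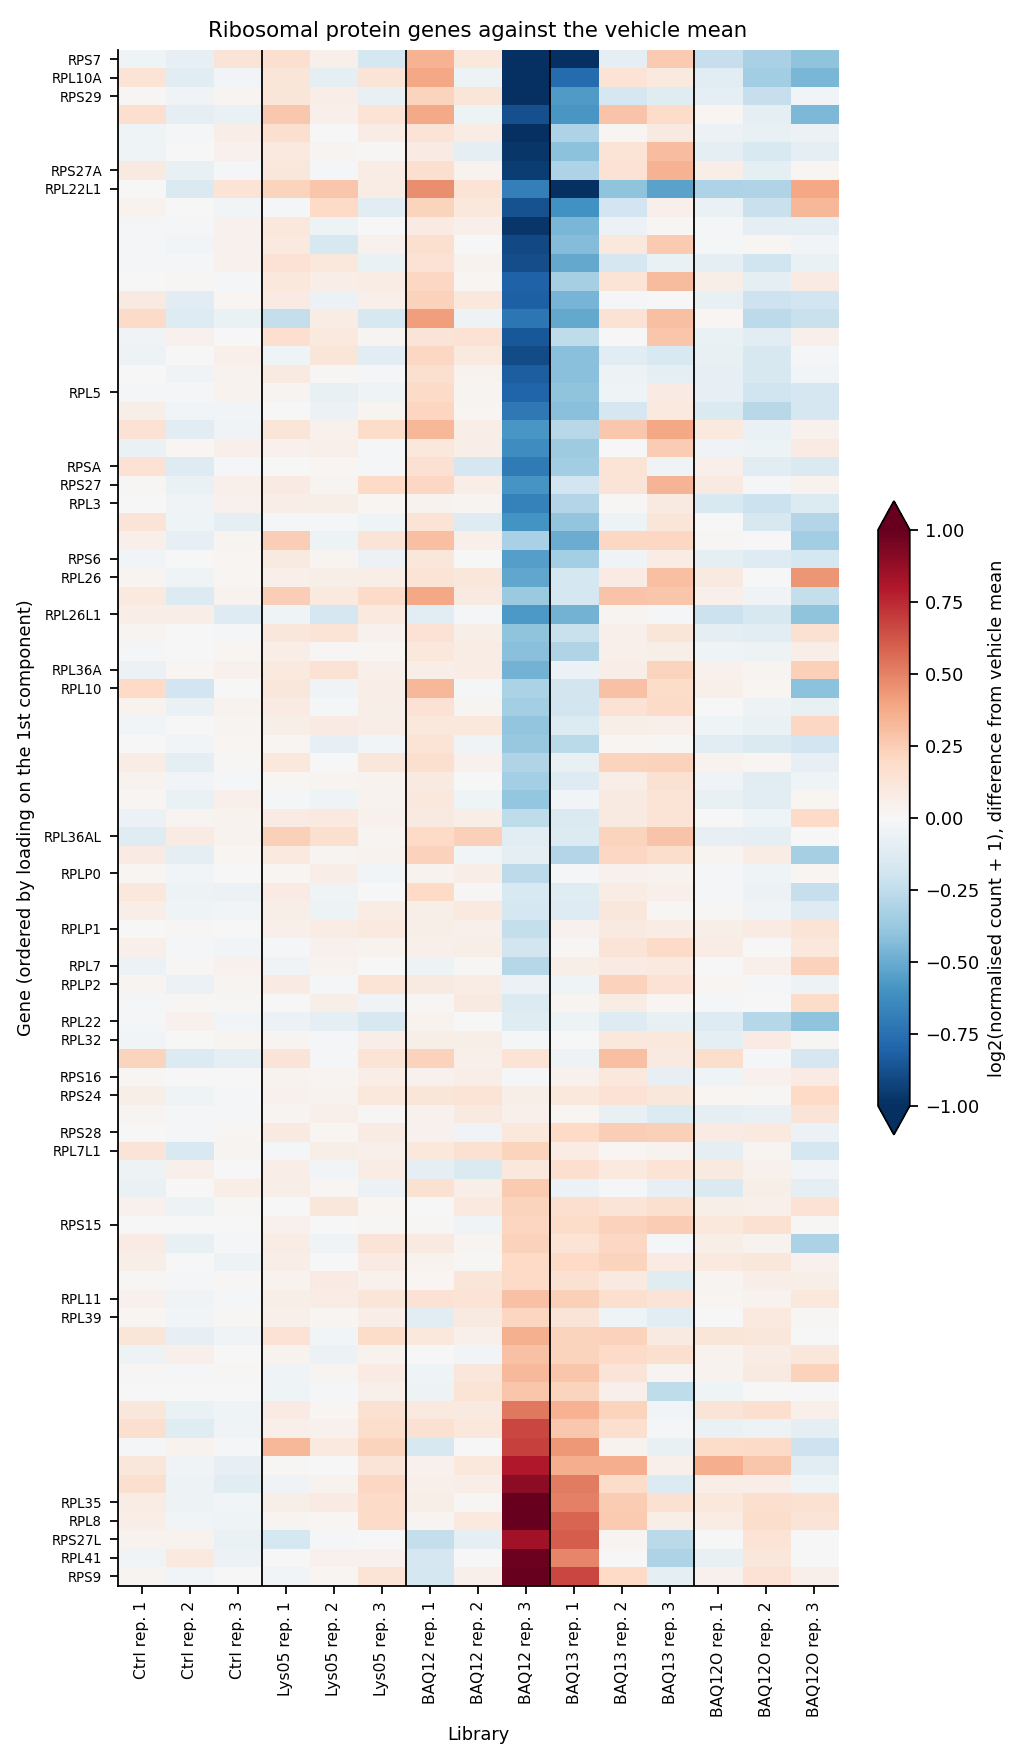
Difference of log2(normalised read count + 1) from the vehicle mean for the 83 tested rows (vertical, ordered by their loading on the first principal component, with the genes that the text describes labelled) in the 15 libraries (horizontal, lines between groups). BAQ12 replicate 3 and, more weakly, BAQ13 replicate 1 run from low (RPS7, top) to high (RPS9, bottom), and the colour scale ends at 1, and values past it, such as RPS7 at −2.39, take its end colour.

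The correlation of the deviation with the GC content of the transcripts over the 83 rows was 0.277 in BAQ12 replicate 3 and 0.136 in BAQ13 replicate 1, and over the genes tested that had a value it was 0.274 and 0.214. With the GC content of the last 300 bases it was 0.230 and 0.0802 over the members and 0.329 and 0.253 over all genes. With the log2 mean count it was 0.120 and 0.233 over the members. With the log2 transcript length it was 0.0966 and 0.101. The part of GC content, RNA quality and library preparation in the deviations was not tested.

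**Figure D3:**
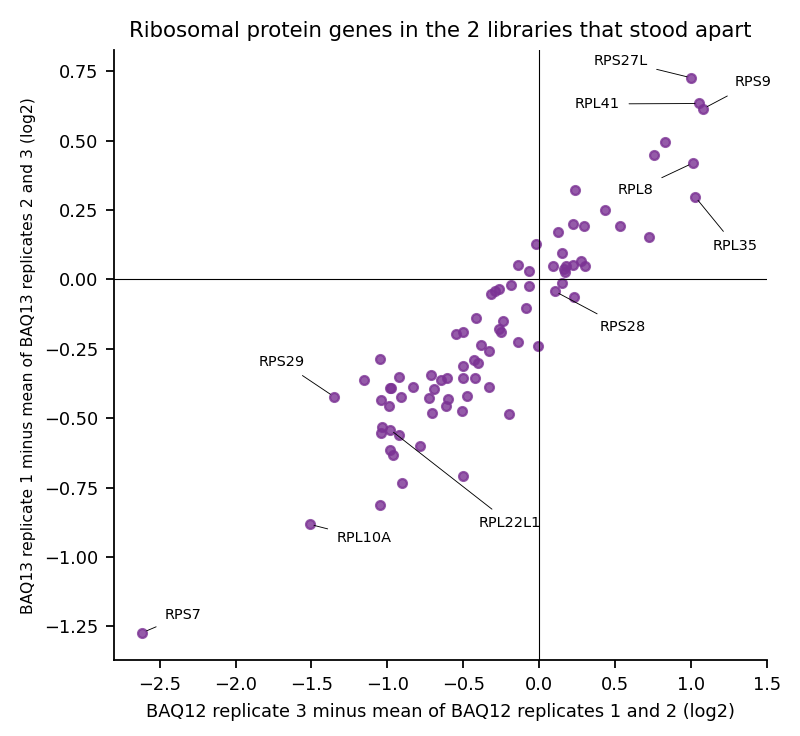
Each point is 1 of the 83 tested ribosomal protein rows, at its difference from the mean of the other 2 libraries of its group in BAQ12 replicate 3 (horizontal) and in BAQ13 replicate 1 (vertical), both in log2 units. The points run from RPS7 at the lower left to RPS9, RPL41 and RPS27L at the upper right (r = 0.925 over 83 genes, a description).

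Each treatment was compared with vehicle to ask whether it changed the RNA of any member. A row was called when its p-value from limma, adjusted over all 10495 genes tested, was under 0.05. Of the 83 members, 1 was called in 1 comparison, RPS28 with BAQ13. All differences between treatment and vehicle means were small, and none of the 83 differed by 2-fold in any comparison.

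With Lys05, 0 members were called, against 0.238% of all genes tested, and 0 of the 83 had an unadjusted p under 0.05, against 4.98% of all genes. edgeR and DESeq2 on the recovered reads also called 0. The unadjusted count depended on the libraries in the fit. It was 12 with only the 6 libraries compared and 3 without BAQ12 replicate 3 and BAQ13 replicate 1, with 0 called in both. The shares of all genes under an unadjusted p of 0.05 in those fits were not computed, so the counts of 12 and 3 are not read as a result about the family. The log2 differences lay between −0.11 (RPS26) and 0.22 (the second RPL41 row), with a median of 0.044, and 71 of the 83 were above 0. The median over all genes was 0.002. The 3 Lys05 libraries did not overlap with vehicle for 13 members that were higher and 1 that was lower, which is 15.7% and 1.20% of the members, against 8.24% and 7.37% of all genes. The 95% interval lay within a 1.5-fold change in either direction for 77 of the 83, and within a 2-fold change for 82, the exception being RPS7, whose SE was 0.48.

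With BAQ12, 0 members were called, against 0.981% of all genes, with 4 under an unadjusted p of 0.05 (4.82%, against 11.8% of all genes) and 0 by edgeR and DESeq2. The differences ranged from −0.64 (RPS7) to 0.40 (RPL8) with a median of −0.031. Without BAQ12 replicate 3, 0 members were called as well, against 1.31% of all genes, and the median was 0.079 with 71 of the 83 above 0, where 35 had been above 0 with all 3 libraries. The sign of the median thus rested on that library. The interval lay within a 1.5-fold change for 60 of the 83 and within a 2-fold change for 82. The BAQ12 and vehicle libraries did not overlap for 5 members that were higher and 0 that were lower, against 7.75% and 7.61% of all genes. With both libraries that stood apart left out, 0 members were called for BAQ12, against 2.12% of all genes, and 0 for Lys05, against 0.924%.

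With BAQ13, 1 member was called, which was higher, against 5.77% of all genes (3.58% higher and 2.19% lower). An unadjusted p under 0.05 was found for 7 members (8.43%), with RPS28, RPS15 and RPL11 among the 6 that were higher and RPL22L1 as the 1 that was lower, against 19.4% of all genes. The differences ran from −0.65 (RPL22L1) to 0.30 (RPL35), and their median was 0.040 with 51 of the 83 above 0. Without BAQ13 replicate 1 the median was 0.093 with 65 above 0. The groups did not overlap for 13 members that were higher (15.7%, against 14.5% of all genes) and 6 that were lower (7.23%, against 14.4%). The share of members called was thus below that of all genes, and the share that was higher without overlap was near it. The 95% interval lay within a 1.5-fold change for 72 of the 83 and within a 2-fold change for 81, all except RPS7 and RPL22L1.

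The count with BAQ13 rested on the 2 libraries that stood apart. Without BAQ12 replicate 3, which enters only the shared estimate of the spread, 7 members were called higher and 4 lower (13.3%, against 13.7% of all genes). Without BAQ12 replicate 3 and BAQ13 replicate 1, 14 were called higher and 1 lower (18.1%, against 12.0%). Without BAQ13 replicate 1 alone, 0 were called, against 3.60%. With only the 6 libraries of the comparison in the fit, 4 were called, against 9.02%, and after a correction of each library for GC content 0 were, against 5.84%. RPS28 and RPS15 were called higher, and RPL22L1 lower, in both fits without BAQ12 replicate 3. In the fit without both libraries the 14 higher members included RPL13A, RPS2, RPS27A, RPS15, RPS28, RPS27 and RPL35, and the differences of the 14 lay between 0.16 and 0.33 on the log2 scale. These members were identified after the 2 libraries had been left out for what they showed.

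With BAQ12O, 0 members were called, against 1.48% of all genes, with 1 (RPL22) under an unadjusted p of 0.05, against 12.8%, and edgeR and DESeq2 called 0. The differences ranged from −0.32 (RPS7) to 0.18 (RPL26), with a median of −0.013. The groups did not overlap for 8 members that were higher (9.64%, against 12.5% of all genes) and 13 that were lower (15.7%, against 13.3%). Without BAQ12 replicate 3 and BAQ13 replicate 1, RPL26 was called higher and RPS7, RPL10A, RPL22 and RPL5 lower, which is 6.02% of the members, against 9.28% of all genes, while without BAQ12 replicate 3 alone 1 member, RPL22, was called, against 4.99%. With only the 6 libraries compared, 3 were called lower, against 8.30% of all genes. An unadjusted p under 0.05 was found for 19 members in the fit without both libraries and for 18 with only the 6 compared. The shares of all genes under that p in these fits were not computed.

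**Figure D4:**
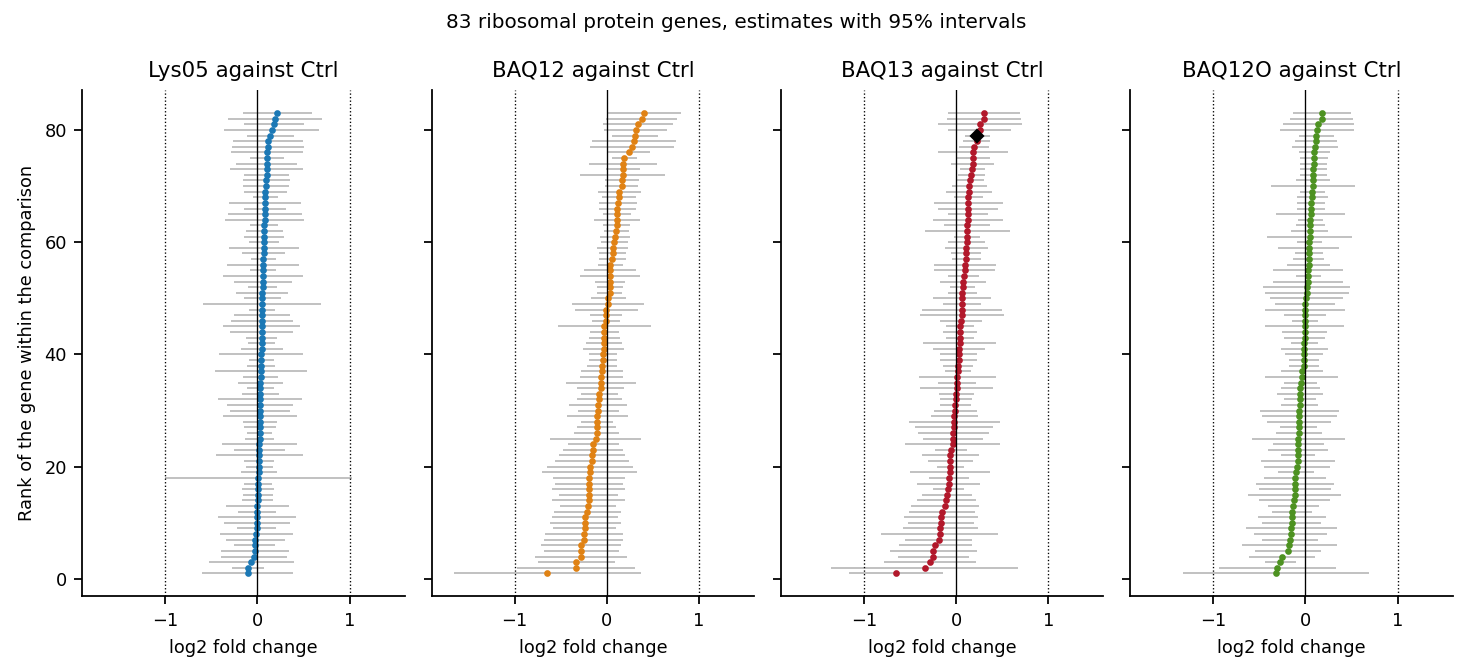
Estimated log2 fold change of the 83 tested members against vehicle for each treatment, ranked within the comparison (vertical), with 95% intervals as grey lines and dotted lines at a 2-fold change. The points stay between −0.65 and 0.40, and the single member called, RPS28 with BAQ13, is the black diamond.

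RPS28 is a protein of the head of the small subunit near the exit of the mRNA channel. It had 3377, 3349 and 3391 normalised reads in vehicle cells and 3873, 4007 and 3973 with BAQ13. With Lys05 it had 3581, 3425 and 3567, with BAQ12 3472, 3288 and 3634 and with BAQ12O 3564, 3609.6 and 3237. Every BAQ13 library lay above every library of the other 4 groups. RPS28 rose with BAQ13 from 3372 ± 21.5 to 3951 ± 69.6 (mean ± SD, n = 3), a log2 fold change of 0.23 with an SE of 0.064 (limma, adjusted p = 0.043, 95% interval 0.093 to 0.36). Against Lys05 the difference was 0.16 (SE 0.064, limma adjusted p = 0.22) and against BAQ12 0.19 (SE 0.064, limma adjusted p = 0.34). The call of RPS28 lay close to the threshold, and it was lost when any 1 of the vehicle, Lys05 or BAQ13 libraries, or BAQ12O replicate 1 or 2, was left out. Over 28 alternative settings the log2 fold change against vehicle stayed between 0.19 and 0.24, and the adjusted p was under 0.05 in 13 of them and between 0.001 and 0.21 over all. The start of RPS28 has a run of 9 pyrimidines, a feature that it shares with most members that were not called. Its start base is not a C, so it lacks the C with 4 pyrimidines after it that 47 of the 68 members had.

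RPL22L1 differed most from vehicle with BAQ13, without passing the test. The paralogue pair RPL22 and RPL22L1 is of the large subunit and binds RNA outside the ribosome as well. RPL22L1 had 124, 112 and 136 normalised reads in vehicle cells, 144, 150.0 and 129.8 with Lys05 and 60.7, 93.0 and 84.6 with BAQ13. With BAQ12 it had 171, 136 and 76.6, and with BAQ12O 99.2, 100.1 and 161. The 3 BAQ13 libraries lay below all vehicle and Lys05 libraries, and BAQ12 replicate 3 lay among them. The log2 difference between BAQ13 and vehicle was −0.65 with an SE of 0.24 (limma, adjusted p = 0.13, 95% interval −1.16 to −0.14), and that between BAQ13 and Lys05 was −0.84 (SE 0.24, limma adjusted p = 0.079). Without BAQ12 replicate 3 the difference from vehicle had an adjusted p of 0.0058 in limma, and without BAQ13 replicate 1 as well it was −0.47 with an adjusted p of 0.021. Without BAQ13 replicate 1 alone the adjusted p was 0.42, and edgeR and DESeq2 gave 0.11 and 0.13. Over the 28 alternative settings the difference from vehicle lay between −0.78 and −0.47, and 3 of them called it. At the vehicle mean of 124 normalised reads, RPL22L1 has far fewer reads behind it than RPS28.

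RPL22 itself had 623, 649.9 and 616 normalised reads in vehicle cells and 576, 516 and 476 with BAQ12O. With Lys05 it had 605, 590.5 and 563, with BAQ12 647, 627 and 579 and with BAQ13 608, 577 and 597. All Lys05, BAQ13 and BAQ12O libraries lay below the 3 vehicle libraries. The log2 difference between BAQ12O and vehicle was −0.27 (SE 0.080, limma adjusted p = 0.12), and those of Lys05 and BAQ13 were −0.10 and −0.084. As a share of the reads of the pair, RPL22L1 took 16.6%, 14.7% and 18.1% in vehicle cells, 19.2%, 20.3% and 18.7% with Lys05 and 9.07%, 13.9% and 12.4% with BAQ13. With BAQ12 the shares were 20.9%, 17.8% and 11.7%, and with BAQ12O 14.7%, 16.3% and 25.3%. The BAQ13 shares were all lower than the vehicle shares, those of BAQ12 spread over both sides of them, and those of BAQ12O lay in or above their range.

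**Figure D5:**
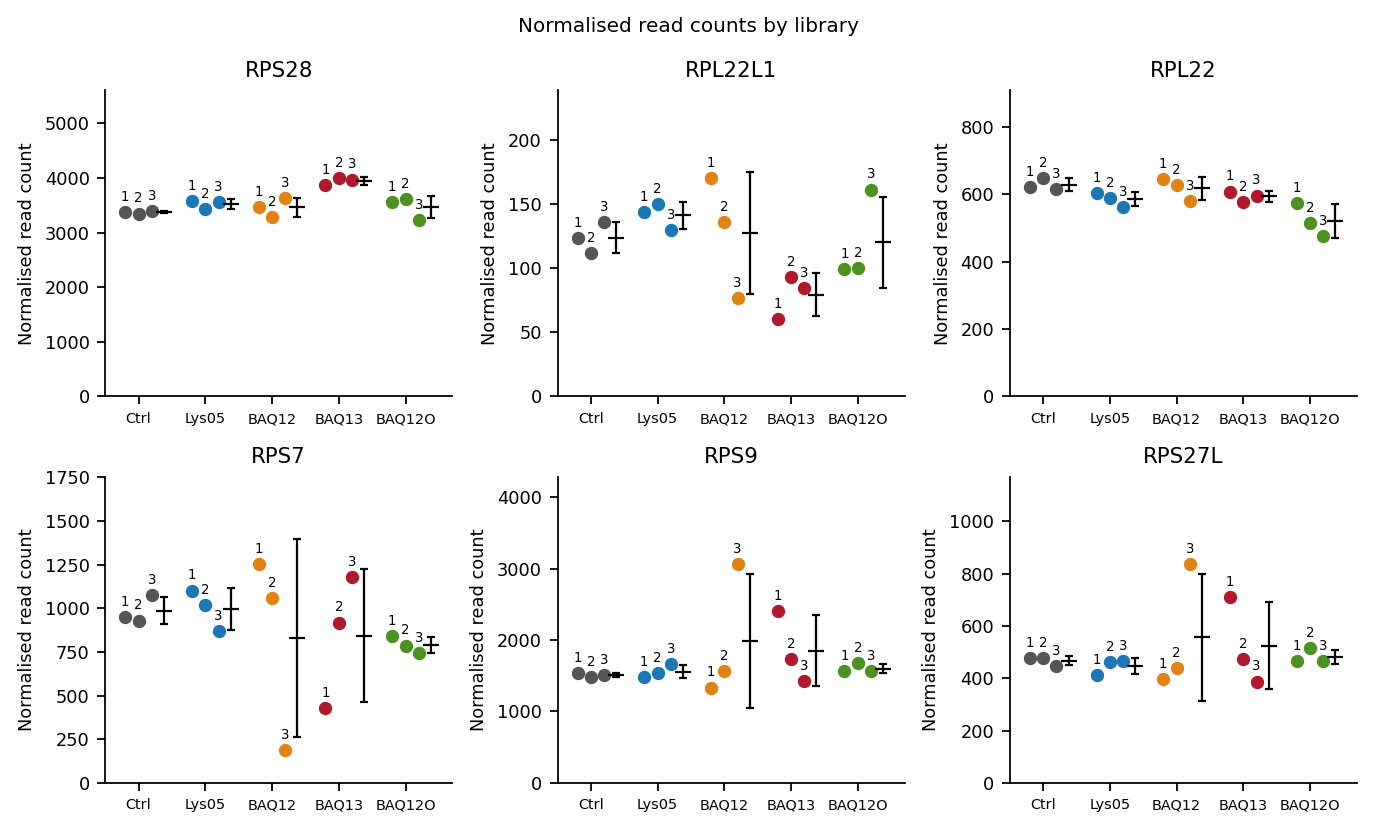
Normalised read counts (vertical, from 0) of 6 members in the 15 libraries, with replicate numbers and mean ± SD of 3 libraries as bars. RPS28 is highest in the 3 BAQ13 libraries, RPL22L1 is low in them, RPL22 is lowest with BAQ12O, and RPS7, RPS9 and RPS27L show BAQ12 replicate 3 and BAQ13 replicate 1 apart from their groups.

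In the other paralogue pairs no member was called in any comparison. RPS27L, a paralogue of RPS27 that p53 induces, had 477, 477 and 446 normalised reads in vehicle cells, 396, 438 and 837 with BAQ12 and 710.1, 475 and 387 with BAQ13. With Lys05 it had 412, 461 and 466, and with BAQ12O 466, 514 and 466. The high values were again those of BAQ12 replicate 3 and BAQ13 replicate 1, in which RPS27 was lowest, at 446 and 586 against 677, 639.8 and 696 in vehicle cells. The limma difference of RPS27L from vehicle was 0.17 with BAQ12 and 0.12 with BAQ13, each with an SE of 0.22, and neither was called. Both signs rested on 1 library, since the difference was −0.16 without BAQ12 replicate 3 and −0.12 without BAQ13 replicate 1.

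RPL26L1, the paralogue of RPL26, had 74.7, 74.8 and 65.2 normalised reads in vehicle cells and 61.4, 63.9 and 53.8 with BAQ12O, whereas RPL26 had 6389, 6080.0 and 6349 and 6685, 6300.0 and 8499.5. The BAQ12O libraries lay below vehicle for RPL26L1 and overlapped with vehicle for RPL26, and neither gene was called. RPL36AL, the paralogue of RPL36A, took 8.65% to 12.6% of the reads of its pair over the 15 libraries. RPL7L1 took 11.6% to 19.8% of those of RPL7 and RPL7L1. Both shares were highest in BAQ12 replicate 3 and lowest in BAQ12O replicate 3. RPL7 had 1758, 1845 and 1891 normalised reads in vehicle cells and 1770.1, 1845 and 1502 with BAQ12, and RPL36A had 2275, 2395 and 2439.9 and 2474, 2501 and 1704. The paralogues known from muscle or testis, RPL3L, RPL10L and RPL39L, had 1, 0 and 2 reads over all 15 libraries. Their common forms RPL3, RPL10 and RPL39 were not called in any comparison. RPL3, which lies at the peptidyl transferase centre, had 503, 492 and 521 in vehicle cells and 315 at its lowest, in BAQ12 replicate 3. RPL10, which joins the large subunit late in its assembly, ranged from 516 in BAQ12O replicate 3 to 862 in BAQ12 replicate 1, and RPL39, a protein of the peptide tunnel, from 2115 to 2649.

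RPLP0, RPLP1 and RPLP2 form the stalk that recruits the GTPases of translation. RPLP0 had 3016, 2926 and 2982 normalised reads in vehicle cells and 2948, 3058 and 3054 with BAQ13, RPLP1 had 3576, 3609 and 3572 and 3688, 3826 and 3771, and RPLP2 had 2162, 2034 and 2155 and 2057, 2479.9 and 2334. These were all steady, with coefficients of variation over the 15 libraries of 5.16%, 5.50% and 6.01%, and their log2 differences between BAQ13 and vehicle were 0.022, 0.069 and 0.11. RPL5 and RPL11, which bind 5S rRNA, differed in their stability. RPL5 had 3545, 3515 and 3656 in vehicle cells, 4078, 3647 and 2054 with BAQ12 and 2701, 3464 and 3779.8 with BAQ13, so that it was low in the 2 libraries that stood apart. RPL11 had 2519.8, 2385 and 2416 in vehicle cells, 2695, 2678 and 2987 with BAQ12 and 2881, 2722 and 2670.2 with BAQ13, and with Lys05 2542, 2570.2 and 2653, so that all BAQ12, BAQ13 and Lys05 libraries lay above vehicle. Its log2 differences were 0.19 and 0.18 with an SE of 0.065, and they had adjusted p-values of 0.25 and 0.13 in limma.

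RPS27A, which is made as a fusion with ubiquitin, had 11649, 10390.1 and 10874 normalised reads in vehicle cells, 12233, 11248 and 5685 with BAQ12 and 8867, 12113 and 13981 with BAQ13. RPS6, the target of the S6 kinases downstream of mTORC1, had 4292, 4374 and 4426, 4729.6, 4348 and 2976 and 3453, 4257 and 4592 in the same groups. RPSA, which is also known as the laminin receptor, had 369, 306 and 330.5, 371, 297 and 205 and 263, 367 and 326. For these genes too the values of BAQ12 replicate 3 and BAQ13 replicate 1 were the lowest of all 15 libraries, whereas RPS27A in the other BAQ13 libraries and in BAQ12 replicate 1 lay above all vehicle libraries. None was called against vehicle. RPS27A was called higher with BAQ13, by 0.25 on the log2 scale (limma, adjusted p = 0.0015), when both libraries were left out. They were left out after their values were seen. Leaving out the lowest BAQ13 value of RPS27A raises its BAQ13 mean, so that this call is not independent support for a rise.

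BAQ13 was further compared with Lys05 and with BAQ12 at the same dose and time. Against Lys05, 0 members were called (limma), against 2.66% of all genes, with 4 under an unadjusted p of 0.05, against 14.6%. edgeR called 0 and DESeq2 1, RPL22L1, which was lower with BAQ13. The differences between BAQ13 and Lys05 had a median of −0.014 with 38 of the 83 above 0, and without BAQ13 replicate 1 the median was 0.048 with 58 above 0. Between BAQ13 and BAQ12 the median was 0.047, but −0.050 without BAQ12 replicate 3 and 0.14 without BAQ13 replicate 1. The differences between BAQ13 and Lys05 lay within a 1.5-fold change by their 95% interval for 70 of the 83 and within a 2-fold change for 81. Against BAQ12, 0 members were called (limma, and 0 by edgeR and DESeq2), against 0.562% of all genes, with 6 under an unadjusted p of 0.05, against 8.27%, and the intervals lay within 1.5-fold for 71 and within 2-fold for 81. These are intervals on what differences remain possible and do not show that the compounds act alike. Without the 2 libraries, RPS15 and RPS28 were called higher and RPL22L1 and RPS29 lower with BAQ13 in both comparisons, among 6 members called in each, against 6.01% of all genes for Lys05 and 2.28% for BAQ12. Without BAQ12 replicate 3 alone, 5 and 8 members were called, against 7.76% and 3.16%, and with only the 6 libraries compared 1 was called for Lys05, RPL22L1, against 3.71%. RPS15, a small-subunit protein near the decoding site that was chosen after its values were seen, had 2658, 2635 and 2641 normalised reads in vehicle cells, 2728, 2651 and 2661 with Lys05, 2663, 2587 and 3076 with BAQ12 and 2998, 3103 and 3159.6 with BAQ13. The BAQ13 libraries lay above all vehicle and Lys05 libraries and overlapped with BAQ12 through its replicate 3. The 3 comparisons of BAQ13 share the BAQ13 libraries, and those with vehicle share the vehicle libraries.

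The wider translation machinery was read from 3 lists. Of 61 tested genes for ribosome biogenesis, 3 were called with BAQ13. RRP1, a nucleolar factor of large-subunit assembly, rose from 41.8 ± 1.96 to 68.0 ± 13.7 normalised reads (log2 0.67, SE 0.18, limma adjusted p = 0.037). NOP16, also of the nucleolus, fell from 159 ± 13.0 to 121 ± 3.73 (log2 −0.39, SE 0.10, limma adjusted p = 0.029). HEATR1, which is needed for rRNA transcription and small-subunit processing, fell from 275 ± 13.6 to 220.4 ± 20.5 (log2 −0.32, SE 0.093, limma adjusted p = 0.049). edgeR called the same 3 genes and DESeq2 called 0 of the list. Against Lys05 and BAQ12, limma called 0 of the list. An unadjusted p under 0.05 was found for 8 and 6 genes. These are 13.1% and 9.84% of the list, against 14.6% and 8.27% of all genes. edgeR called TCOF1, a cofactor of rRNA transcription, lower with BAQ13 in both comparisons, and DESeq2 called it in the comparison with BAQ12. With BAQ13 against vehicle, the 3 of 61 called stood beside 5.77% of all genes. An unadjusted p under 0.05 was found for 13 of the list (21.3%), against 19.4% of all genes. Both shares were thus near those of all genes. The median of the list was −0.16 on the log2 scale with 16 of 61 above 0, beside −0.004 over all genes. With BAQ12O the median was −0.12, with Lys05 −0.048 and with BAQ12 −0.034 (−0.080 without BAQ12 replicate 3), and limma, edgeR and DESeq2 called 0 of the list in these 3, with 9, 2 and 4 under an unadjusted p of 0.05, which is 14.8%, 3.28% and 6.56% of the list, against 12.8%, 4.98% and 11.8% of all genes.

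Of 46 tested translation factors and of 22 other genes with a TOP mRNA, limma, edgeR and DESeq2 called 0 against vehicle with each of the 4 treatments. Unadjusted p-values under 0.05 were found with BAQ13 for 9 translation factors (19.6%) and 5 other TOP genes (22.7%), near the 19.4% of all genes. With the other treatments there were at most 6 and 3, both with BAQ12, where 11.8% of all genes passed. The 2 lists share members, among them EEF1A1 and EEF2. With BAQ13 the median of the other TOP genes was −0.073 and that of the translation factors −0.10, and the median of the ribosomal protein genes was 0.040. These medians, with BAQ12 replicate 3 and BAQ13 replicate 1 left out, were 0.025, −0.036 and 0.093. Within the family, the 55 members with a run of at least 8 pyrimidines at the start had a median log2 difference from vehicle of 0.029 with BAQ13, and the 12 tested members with a start but no such run had −0.010, or 0.11 and 0.031 without these libraries. With Lys05 the medians were 0.047 and 0.026, with BAQ12 −0.031 and −0.062 (without these libraries 0.079 and 0.071), and with BAQ12O −0.013 and −0.041. For comparison, the SE of a single member had a median of 0.12.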

How the data were processed

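Total RNA of MIA PaCa-2 cells was sequenced in 15 libraries. The labels name a 3′ end kit (QuantSeq FWD) and the methods of the study a stranded kit for whole transcripts, so levels were not compared between genes per length. The submitters' processing notes name STAR, HTSeq, DESeq2 and GRCh38, and versions are not given in the sources used here. The deposited signal of a gene is its read count divided by the size factor of the library, and all values were whole multiples of 1 read within a tolerance of 0.001, so reads were recovered.

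The deposited values plus a pseudocount of 1 were taken to log2 and compared with limma 3.58.1 (trended empirical Bayes fit, R 4.3.3) over all 15 libraries, with Benjamini-Hochberg adjustment over 10495 genes that passed a filter (edgeR filterByExpr with a minimum count of 10 and a minimum total of 15). A fold change on this scale understates that of genes with few reads. A gene was called at an adjusted p under 0.05. edgeR 4.0.16 (quasi-likelihood test) and DESeq2 1.42.0 were run on the recovered reads as alternatives. The code was tested on simulated data. Groups came from the sample labels. Python 3.11.15, pandas 2.3.3, numpy 2.4.6, scipy 1.17.1 and matplotlib 3.10.9 were used for summaries. All 90 identifiers were found in GENCODE 29.

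Genes were named by rule: called members without overlap between groups, the paralogues and the members they resemble, the stalk, MDM2-binding, ubiquitin-fused, S6 kinase substrate and RPSA genes, and the 3 most and 3 least variable members over the 15 libraries. Every other gene named was chosen after its values were seen. Members and lists were chosen with earlier results of these data known. The libraries held 1586566 to 2500551 reads, which limits the precision for genes with few reads. Floors cover counting error only, and 95% intervals of fold changes are those of the limma fit. Some members are counted but not reported by name here.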

Additional observations from a re-analysis of the deposited data

How the results depend on the processing

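The number of members called with BAQ13 against vehicle, 1, was the value that moved most. It was 0 with scaling to all reads of the library (CPM), without a filter on low counts and after a correction for GC content, 4 with only the 6 libraries compared, and 15 with BAQ12 replicate 3 and BAQ13 replicate 1 left out together. The GC correction and the joint omission were chosen after seeing the data. For BAQ12O the number was 0, but 3 with 6 libraries and 5 with the joint omission, and the median log2 fold change was −0.052 with scaling to all reads of the library (CPM). Between BAQ13 and Lys05 it was 0, but 1 with DESeq2, 1 with 6 libraries and 6 with the joint omission, which also gave 6 between BAQ13 and BAQ12. The cause of these changes was not tested, and the fits on fewer libraries also differ in their number of samples.

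Leaving out 1 library at a time gave 0 to 11 calls for BAQ13 against vehicle, 0 to 1 for BAQ12O, 0 to 5 for BAQ13 against Lys05 and 0 to 8 for BAQ13 against BAQ12, each maximum without BAQ12 replicate 3, and 0 for Lys05 and BAQ12. With the replicate number as a block, 0 members were called in each of the 6 comparisons. Same-numbered libraries did not deviate together (between BAQ13 and BAQ12 the correlations were −0.49, 0.12 and −0.49), so the numbers were not taken as pairs. Without mitochondrially encoded genes in the denominator the share of the family was 11.5% for vehicle, 11.8% for Lys05, 11.4% for BAQ12, 11.7% for BAQ13 and 11.5% for BAQ12O. Of 4536 repeated tests of the named members, 4496 kept their side of the threshold, 15 lost a call and 25 gained one. The only call in the main fits was RPS28 with BAQ13, so the 15 lost calls were all of that result. It was kept in 13 of its 28 alternatives, and most of the 4496 were uncalled in both fits. No called value changed its sign, whereas 203 of the values that were called in neither fit did.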
